A study of Mus musculus with 108 samples.

Results

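The 8 genes described here encode the subunits of condensin I and condensin II. They were found in the gene count files by the Ensembl mouse identifiers of the symbols Smc2, Smc4, Ncapd2, Ncapg, Ncaph, Ncapd3, Ncapg2 and Ncaph2, and they are 8 of the 55573 genes counted. All 8 passed the filter on low counts in both library types. The samples were single mouse oocytes from control females and from females with an oocyte-specific knockout (cKO) of Exosc10, the gene of a nuclease of the nuclear RNA exosome. Single-oocyte RNA was sequenced either after capture of polyadenylated RNA (polyA libraries, 64 oocytes of 16 females) or after removal of ribosomal RNA without selection for a poly(A) tail (RiboMinus libraries, 22 oocytes of 7 females). Oocytes were taken at the germinal vesicle stage (GV, arrested in prophase of meiosis I), after 3 h in culture (GV3h, polyA only) or as ovulated eggs in metaphase of meiosis II (MII, collected from oviducts).

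The polyA groups held 7 control and 15 cKO oocytes at GV (2 females each), 8 control and 11 cKO oocytes at GV3h (3 females each), and 8 control and 15 cKO oocytes at MII (3 females each). The RiboMinus groups held 8 control and 7 cKO oocytes at GV (2 females each), and 3 control and 4 cKO oocytes at MII. The 3 RiboMinus MII control oocytes came from 1 female, V1145, and the 4 cKO oocytes from 2 females, so in every comparison with that control group the female and the condition cannot be told apart. No female gave libraries of both types, so in every comparison of library types the library type and the females cannot be told apart. The Cre line, strain and age of the females are not given in the sources used here. Each female gave oocytes of 1 genotype and 1 stage, and the female, not the oocyte, was the replicate of every main test. The alternative named oocytes as replicates treats oocytes of the same female as independent. A pass under it is therefore no support for a difference between groups of females.

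Condensins are ring-shaped complexes that compact and stiffen chromosomes for division. Both share the ATPase pair SMC2 and SMC4. Condensin I adds the kleisin NCAPH, which closes the ring, and the HEAT-repeat subunits NCAPD2 and NCAPG. Condensin II uses NCAPH2, NCAPD3 and NCAPG2 in the same places. In somatic cells condensin II is nuclear throughout the cycle, while condensin I reaches chromosomes after the nuclear envelope breaks down. In mouse oocytes both complexes act on the meiotic chromosomes, and growing oocytes lay down much of the mRNA that maturation and the embryo later use.

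On the GRCm38 assembly (mm10) with GENCODE M21 gene models, Smc2 lies at chr4:52439243-52488260 on the plus strand and Smc4 at chr3:69004738-69034623 on the plus strand. Of the condensin I genes, Ncapd2 lies at chr6:125168007-125191701 (minus strand), Ncapg at chr5:45669919-45700546 (plus) and Ncaph at chr2:127103809-127133954 (minus). Of the condensin II genes, Ncapd3 lies at chr9:27030175-27095315, Ncapg2 at chr12:116405402-116463731 and Ncaph2 at chr15:89355719-89372826, all on the plus strand. Ncaph2 shares 829 exon bases (19.7% of its exon length) with Sco2 and 535 (12.7%) with Tymp, and Ncapg shares 944 (13.4%) with Lcorl, all on the opposite strand. Ncapd2 shares 237 bases (3.78%) with Scarna10, annotated as a small nucleolar RNA gene, and 235 (3.75%) with Gm28967, annotated as sense intronic, both on its own strand. Whether reads were counted by strand is not given in the sources used here, so counts of these 3 genes are uncertain in the shared bases.

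Many genes of mitosis carry a cell cycle homology region (CHR, the letters TTTGAA) near their start, and this was searched on both strands from 250 bases before to 50 bases after each RefSeq start (GRCm38.p6). Entries were found for 7 of the 8 members, all but Smc4, with a second start for Ncapd3. The letters occurred in 5 of these 7 genes (Smc2, Ncapg, Ncapd2, Ncapg2 and the second start of Ncapd3) and in 17.9% of all 32851 windows of that length. CCAAT, the letters bound by NF-Y, occurred in 3 of the 7 genes and in 37.4% of all windows, and an E2F site (TTTGGCGC or TTTCGCGC) occurred in Ncapd2 and in 0.8% of all windows. A match describes letters, not binding. The 250 bases before the start are shown for Smc2, the member that was higher in cKO at GV and GV3h, and for Ncapg and Ncapg2, which were lower at GV3h, with the CHR letters in capitals (in Smc2 on the opposite strand, TTCAAA).
Smc2, chr4:52438971-52439220, plus strand: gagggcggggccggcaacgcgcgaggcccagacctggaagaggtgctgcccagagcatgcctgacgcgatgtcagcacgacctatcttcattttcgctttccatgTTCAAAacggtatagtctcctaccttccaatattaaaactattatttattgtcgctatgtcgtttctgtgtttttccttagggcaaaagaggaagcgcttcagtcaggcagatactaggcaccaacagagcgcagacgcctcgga
Ncapg, chr5:45669675-45669924, plus strand: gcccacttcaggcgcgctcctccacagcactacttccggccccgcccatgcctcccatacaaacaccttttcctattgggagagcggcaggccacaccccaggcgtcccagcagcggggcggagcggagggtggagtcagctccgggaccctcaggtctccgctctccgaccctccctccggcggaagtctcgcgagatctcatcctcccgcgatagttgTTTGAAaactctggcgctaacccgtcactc
Ncapg2, chr12:116405186-116405435, plus strand: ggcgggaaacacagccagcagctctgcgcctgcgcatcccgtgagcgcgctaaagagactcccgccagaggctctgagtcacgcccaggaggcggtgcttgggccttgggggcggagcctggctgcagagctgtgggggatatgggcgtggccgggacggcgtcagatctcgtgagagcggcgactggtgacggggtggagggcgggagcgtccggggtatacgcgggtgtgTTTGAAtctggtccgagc
The match began 30 bases before the start in Ncapg and 18 bases before it in Ncapg2. In Smc2 it began 145 bases before the start, with a further match at base 27 after it.

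The polyA libraries see only RNA with a tail, and in oocytes tail length is set partly by elements near the 3′ end of the mRNA. The last 100 bases of 1 principal GENCODE M21 transcript per gene were searched on the sense strand for the polyadenylation hexamer (AATAAA or ATTAAA) and for a cytoplasmic polyadenylation element (CPE, TTTTAT or TTTTAAT), the site of the CPEB proteins. The CPE letters occurred in 4 of the 8 members, Smc2, Ncapd2, Ncapg and Ncapd3, and in 17.9% of 19423 genes. The hexamer occurred in 6 of the 8, not in these transcripts of Smc4 and Ncapg2, and in 78.7% of genes. The ends of Ncapd2, with a CPE beside the hexamer, and of Ncaph2, with no CPE, are shown with both elements in capitals, because library types differed in the MII genotype difference of Ncapd2 and in the GV to MII change of Ncaph2. The MII genotype difference also differed between library types for Smc4, with no CPE match, and Ncapg, with 2, both in the other direction from Ncapd2. The Smc4 transcript searched has only 100 annotated bases after its coding sequence. The part of these letters in the differences between library types was not tested.
Ncapd2, chr6:125168014-125168043, minus strand: tgttttctaatgAATAAAtgtTTTTATaga
Ncaph2, chr15:89372794-89372823, plus strand: gtgtctatttacAATAAAttgttctttata

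Totals assigned to genes ran from 4638718 to 8735914 counts per oocyte in polyA and from 12319658 to 62675760 in RiboMinus libraries. Exosc10 was lower in every cKO oocyte than in any control of its stage and library type, and the highest cKO oocyte was at 4.21% to 8.81% of the lowest control. All 12 oocyte markers tested were detected in every group. Their summed level overlapped between genotypes except at RiboMinus MII, where it was 8936 to 13120 CPM in cKO and 13570 to 15010 in controls. The markers did not all go one way there: 7 of the 12 had a lower mean in cKO, such as Ooep (645 CPM against 2504), Dppa3 (434 against 1222) and Nlrp5 (358 against 1041), and 5 a higher one, such as Gdf9 (2666 against 1400), Mos (229 against 118) and Oosp1 (1026 against 843). Over the 14 granulosa and cumulus cell markers, the summed level per oocyte was 68.0 to 123 CPM (gene counts relative to the library's total, scaled by TMM factors) in the polyA GV and GV3h groups, 93.3 to 159 in MII cKO and 103 to 175 in MII controls. In RiboMinus it was 97.3 to 207 in GV cKO, 104 to 150 in GV controls, 73.0 to 114 in MII cKO and 153 to 169 in MII controls, where the ranges did not overlap. At RiboMinus MII, Tnfaip6 and Ptx3 were at 0 in both genotypes, Foxl2, Amh, Ihh and Lhcgr were also at 0 in controls, and Nr5a2 gave the highest mean level. These markers did not all go one way either. Nr5a2 (65.6 CPM against 129), Cyp19a1 (12.3 against 19.2), Has2, Kitl and Inhba had a lower mean in cKO. Fshr (4.23 against 0.885), Ptgs2 (8.23 against 1.13), Inha, Foxl2, Amh, Ihh and Lhcgr had a higher one. The part of the oocyte and granulosa marker differences in the MII results below was not tested. Spike-in counts were not analysed here, so each value is relative to the other genes of its library and says nothing of the RNA content of an oocyte.

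Per kilobase of exon, Smc4 was the most abundant member in all 10 groups, at 36.6 (RiboMinus MII cKO) to 337 CPM per kb (polyA MII control), as means over females. In polyA GV controls the order of levels was Smc4 (162 CPM per kb), Ncapg (66.7), Ncapg2 (37.4), Ncaph (19.5), Ncapd3 (16.8), Ncaph2 (16.3), Smc2 (7.81) and Ncapd2 (1.54). Only Ncapd3 and Ncaph2 had female means that overlapped among neighbours in that order. In these polyA GV controls the ATPase partner SMC2 and the condensin I subunit NCAPD2 were thus encoded by the least abundant mRNAs of the 8. In RiboMinus GV controls the ends of the order were the same, with Smc4 at 185 and Ncapd2 at 3.51 CPM per kb, and Ncapg (93.9) and Ncaph (29.5) stood above Ncapg2 (26.0), Ncapd3 (15.7), Smc2 (10.1) and Ncaph2 (8.06). In RiboMinus MII cKO the order differed: Smc4 (36.6) and Ncaph (36.4) overlapped at the top, Ncapd2 was the fifth at 16.6, and Smc2 was last at 5.85 CPM per kb.

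**Figure D1:**
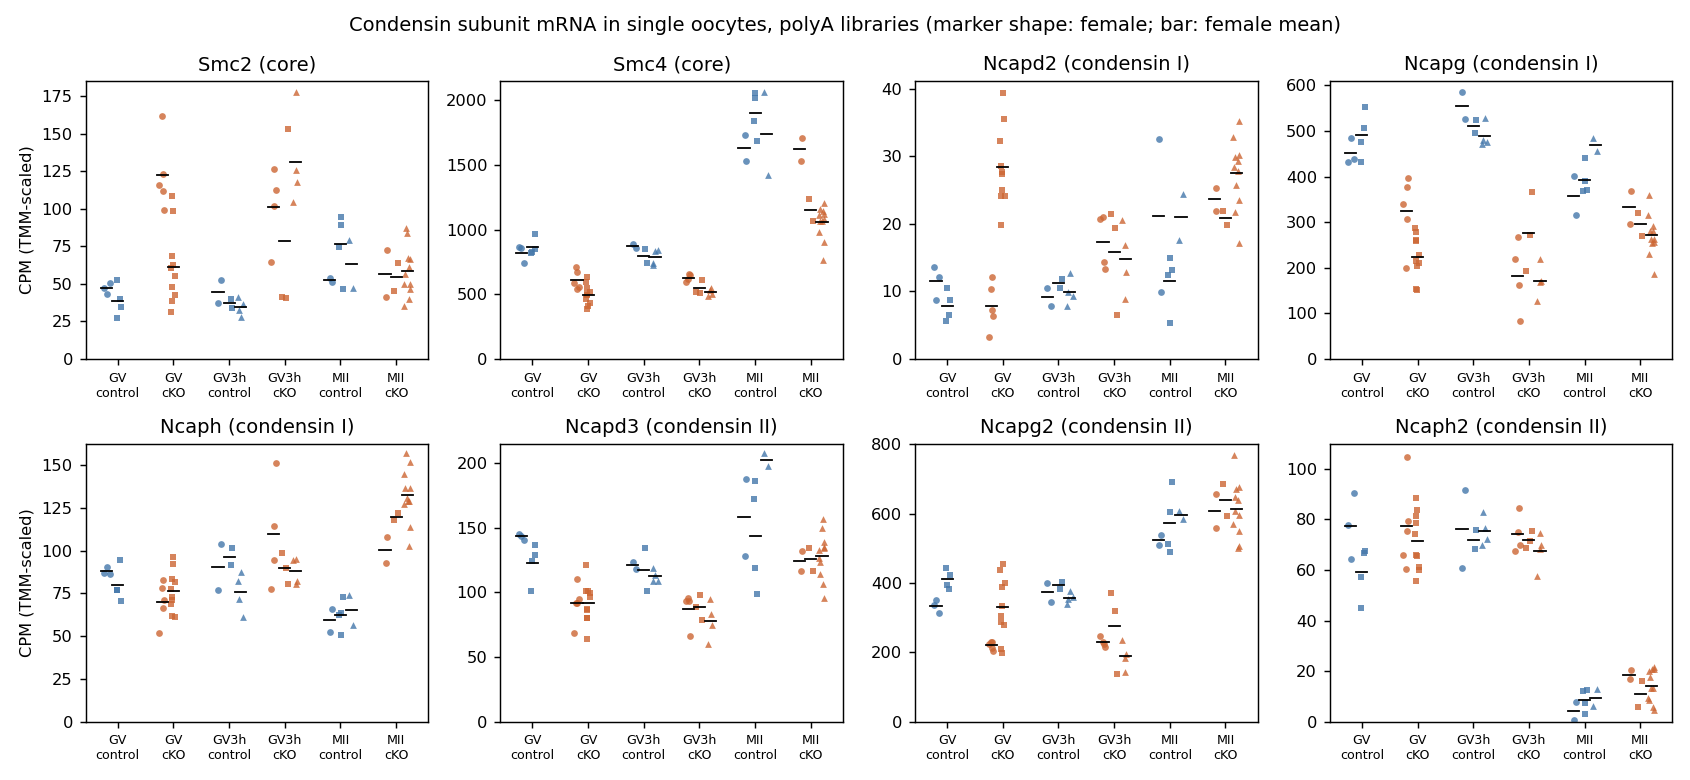
CPM (TMM-scaled, linear axis from 0) of the 8 condensin mRNAs in each polyA oocyte, by stage and genotype; points are oocytes, marker shapes are females and bars are female means. Smc4 and Ncapg lie lower in every cKO oocyte than in any control at GV and GV3h, and Ncaph lies higher in every cKO oocyte at MII.

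In GV oocytes, where the genotype comparison asks which mRNAs differ at the end of growth without Exosc10, 4 of the 8 members passed the test in polyA libraries, against 7.38% of all 19242 genes tested (3.47% higher, 3.91% lower). Smc2 was higher in cKO, and Smc4, Ncapg and Ncapd3 were lower. Smc2, the ATPase partner of SMC4, measured 27.2 to 52.5 CPM in controls (median 43.5) and 31.1 to 162 in cKO (median 68.4). The oocyte ranges overlapped and the female means did not (38.6 and 47.0 in controls, 61.3 and 122 in cKO). The difference was 2.05-fold, a log2 change of 1.03 ± 0.30 (SE, 2 females per genotype, adjusted p = 0.0462).
Smc4 measured 744 to 969 CPM in controls (median 848) and 387 to 709 in cKO (median 538). Every cKO oocyte lay below every control, and the log2 change was -0.68 ± 0.18 (adjusted p = 0.0314). The partners of the SMC dimer therefore differed in opposite directions.

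Among the condensin I mRNAs at GV, Ncapg, a HEAT-repeat subunit, measured 432 to 552 CPM in controls (median 475) and 150 to 396 in cKO (median 260). The oocytes did not overlap, and the log2 change was -0.85 ± 0.21 (adjusted p = 0.0257). Ncapd2, the other HEAT-repeat subunit, measured 5.63 to 13.6 CPM in controls (median 8.73) and 3.19 to 39.3 in cKO (median 24.1). The cKO females stood apart, with means of 7.86 ± 3.51 (SD, 5 oocytes of V857) and 28.4 ± 5.85 (10 oocytes of V888), and the log2 change of 0.86 ± 0.44 did not pass (adjusted p = 0.251). The kleisin Ncaph measured 70.7 to 94.6 CPM in controls and 52.2 to 96.2 in cKO, a log2 change of -0.26 with a 95% interval of -0.65 to 0.12.
Among the condensin II mRNAs, Ncapd3 measured 101 to 145 CPM in controls (median 137) and 64.2 to 121 in cKO (median 92.0), a log2 change of -0.60 ± 0.16 (adjusted p = 0.0319). Ncapg2 measured 314 to 443 CPM in controls and 199 to 455 in cKO, and its log2 change of -0.50 ± 0.18 did not pass (adjusted p = 0.111). The kleisin Ncaph2 measured 45.0 to 90.4 CPM in controls and 55.5 to 105 in cKO, with a log2 change of 0.07 (95% interval -0.51 to 0.65).

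With 2 females per genotype, single females decided the GV calls. Without V856 the log2 changes were 1.17 for Smc2, -0.72 for Smc4, -0.92 for Ncapg and -0.49 for Ncapd3, and without V889 they were 0.92, -0.63, -0.78 and -0.70, and none of the 4 passed in either case. Without V888, Smc4 (-0.53), Ncapg (-0.61) and Ncapd3 (-0.60) did not pass, and Ncapg2 passed at -0.82. Without V857, Smc2 (0.42) and Ncapd3 (-0.61) did not pass, and Ncapd2 passed at 1.495. In a fit of only these 4 females no member passed, and with library totals in place of the TMM factors the calls of Smc4 (-0.50), Ncapg (-0.67) and Ncapd3 (-0.42) were lost. Smc2 was also lost with limma and with voom, and Ncapd3 without the filter on low counts, while Ncapd2 passed with oocytes as replicates. DESeq2 called 2729 genes in all here, against 1420 by edgeR.

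After 3 h in culture (GV3h), 5 of the 8 members passed, against 25.2% of all genes (12.5% higher, 12.7% lower): Smc2 was higher in cKO, and Smc4, Ncapg, Ncapd3 and Ncapg2 were lower. These 5 calls held without each of the 6 females in turn, while library totals ended those of Smc4 (-0.38) and Ncapd3 (-0.30), and dropping the filter on low counts ended that of Ncapd3. Smc2 measured 27.6 to 52.6 CPM in controls (median 36.9) and 40.9 to 177 in cKO (median 112). Its ranges overlapped through 2 low cKO oocytes of V983 (40.9 and 41.6 CPM), and the log2 change was 1.34 ± 0.25 (3 females per genotype, adjusted p = 0.0012), a 2.53-fold difference. Smc4 measured 727 to 891 CPM in controls (median 835) and 490 to 656 in cKO (median 548), with no overlap of oocytes and a log2 change of -0.61 ± 0.15 (adjusted p = 0.00702).
Ncapg showed the largest decrease of the 8, from 471 to 584 CPM in controls (median 510) to 82.9 to 365 in cKO (median 193). No oocytes overlapped, and the log2 change was -1.34 ± 0.17 (adjusted p = 0.000131), 2.53-fold lower. Ncapd2 measured 7.80 to 12.8 CPM in controls (median 10.2) and 6.49 to 21.4 in cKO (median 16.9), and its log2 change of 0.60 ± 0.36 did not pass (adjusted p = 0.246), though it did in a fit of only these groups (0.62, adjusted p = 0.032) and with oocytes as replicates (adjusted p = 0.0119). Ncaph measured 61.3 to 104 CPM in controls and 77.7 to 151 in cKO, a log2 change of 0.05 (95% interval -0.27 to 0.36).
All oocytes were also separate for the condensin II subunit Ncapd3, at 101 to 134 CPM in controls (median 116) and 59.9 to 98.1 in cKO (median 88.7), a log2 change of -0.53 ± 0.13 (adjusted p = 0.00746). Ncapg2 measured 339 to 403 CPM in controls (median 368) and 138 to 371 in cKO (median 223), a log2 change of -0.78 ± 0.15 (adjusted p = 0.00178). Ncaph2 measured 60.9 to 91.7 CPM in controls and 57.6 to 84.4 in cKO, a log2 change of -0.14 (95% interval -0.62 to 0.33).

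At MII, 4 of the 8 members passed in polyA libraries, against 18.9% of all genes (11.9% higher, 6.99% lower): both kleisins, Ncaph and Ncaph2, were higher in cKO, and Smc4 and Ncapd3 were lower. Ncaph measured 50.7 to 74.2 CPM in controls (median 63.0) and 92.8 to 157 in cKO (median 129). Every cKO oocyte lay above every control, and the log2 change was 0.88 ± 0.15 (adjusted p = 0.00103), 1.84-fold higher. Ncaph2 measured 0.876 to 12.8 CPM in controls (median 7.68) and 4.65 to 21.5 in cKO (median 16.3). The oocytes overlapped, counts were low (5 to 158 reads per oocyte), and the log2 change was 0.92 ± 0.24 (adjusted p = 0.0146).
Smc4 measured 1418 to 2063 CPM in controls (median 1782) and 764 to 1710 in cKO (median 1116), a log2 change of -0.51 ± 0.15 (adjusted p = 0.0251). The 2 highest cKO values were both oocytes of V841. Ncapd3 measured 98.8 to 207 CPM in controls (median 179) and 95.2 to 156 in cKO (median 132), a log2 change of -0.45 ± 0.13 (adjusted p = 0.0236). Smc2, at 46.9 to 94.7 CPM in controls (median 64.3) and 35.3 to 87.2 in cKO (median 56.2), had a log2 change of -0.20 (95% interval -0.72 to 0.31).
Ncapg measured 315 to 485 CPM in controls (median 395) and 186 to 369 in cKO (median 280), and its log2 change of -0.48 ± 0.17 did not pass (adjusted p = 0.0653). It passed under 4 of the alternatives, without the filter (adjusted p = 0.0465), with DESeq2 (0.0326), in a fit of only these groups (0.0418) and with oocytes as replicates (5.72e-05). Ncapd2 (0.42 ± 0.36, adjusted p = 0.446) and Ncapg2 (0.09 ± 0.15, adjusted p = 0.737) did not pass either, but Ncapd2 did with oocytes as replicates (adjusted p = 0.028). Ncaph passed without each of the 6 females in turn. Ncaph2 did not pass without V841 (0.74), Smc4 not without V842 (-0.42), V897 (-0.41) or V853 (-0.44), and Ncapd3 not without V841 (-0.43), V842 (-0.43) or V896 (-0.31). Library totals ended the calls of Smc4 (-0.40) and Ncapd3 (-0.36), and a fit of only these groups those of Smc4, Ncapd3 and Ncaph2. Ncapd3 was also lost without the filter, with limma and with voom, and Ncaph2 with voom and with oocytes as replicates.

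**Figure D2:**
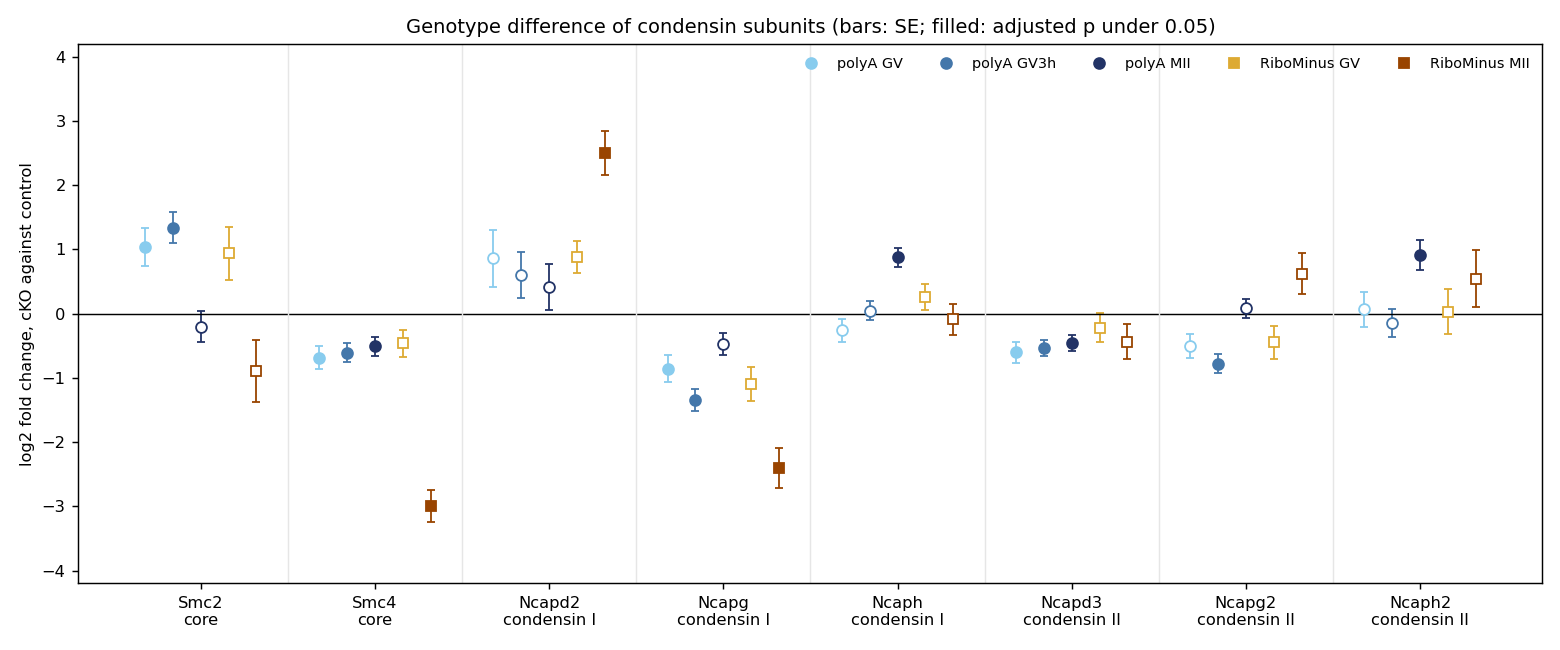
Log2 fold change of each condensin mRNA, cKO against control, in the 5 genotype comparisons; bars are SE over females and filled symbols passed an adjusted p of 0.05. Smc4, Ncapg and Ncapd3 have values below 0 in all 5 comparisons, and the RiboMinus MII values of Smc4, Ncapd2 and Ncapg are the largest in size.

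RiboMinus libraries do not depend on a poly(A) tail, so they ask whether the same differences are seen in RNA irrespective of tail. At GV none of the 8 members passed edgeR's test, against 0.0315% of all 25425 genes tested (8 genes, 0.0275% higher and 0.00393% lower; DESeq2 called 1567). At an unadjusted p under 0.05, 3 members were counted (Smc2, Ncapd2 and Ncapg), against 3727 of all 25425 genes. DESeq2 called 2 members, Ncapd2 and Ncapg. Without the filter Smc2 and Ncapg passed, with voom Ncapg, and with oocytes as replicates all but Ncapd3 and Ncaph2. Smc2 measured 35.2 to 82.5 CPM in controls (median 54.1) and 44.0 to 197 in cKO (median 96.0), a log2 change of 0.94 ± 0.41 (adjusted p = 0.336). Ncapg measured 561 to 734 CPM in controls (median 667) and 99.0 to 624 in cKO (median 301), a log2 change of -1.10 ± 0.27 (adjusted p = 0.142). The cKO oocytes of Ncapg were widely spread, with female means of 453 ± 269 (SD, 3 oocytes of V1126) and 238 ± 98.6 (4 oocytes of V1131), and without V1126 the gene passed at -1.53.
Ncapd2 measured 15.5 to 27.6 CPM in controls (median 23.0) and 13.8 to 66.2 in cKO (median 31.1), a log2 change of 0.88 ± 0.25 (adjusted p = 0.187). Smc4 measured 796 to 1325 CPM in controls (median 928) and 651 to 884 in cKO (median 688), a log2 change of -0.46 ± 0.21 (adjusted p = 0.363). For Ncaph, Ncapd3, Ncapg2 and Ncaph2 the log2 changes were 0.26, -0.22, -0.45 and 0.03, with adjusted p of 0.58 or above for Ncaph, Ncapd3 and Ncaph2 and of 0.458 for Ncapg2. The GV genotype difference itself was compared between polyA and RiboMinus in a joint fit, and none of the 8 members passed, against 0.00404% of 24777 genes (1 gene). At an unadjusted p under 0.05, 1 member was counted there, Ncaph (polyA minus RiboMinus -0.58 ± 0.26), against 555 of all 24777 genes. The 95% intervals of that difference ran from -1.01 to 1.08 for Smc2 and from -0.48 to 0.84 for Ncapg.

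At MII in RiboMinus, 3 of the 8 members passed, against 7.3% of all genes (3.61% higher, 3.69% lower): Smc4 and Ncapg were lower and Ncapd2 higher in cKO. Smc4 measured 1606, 1628 and 1035 CPM in the 3 control oocytes, and 191 and 249 in the cKO oocytes of V1166 and 164 and 158 in those of V1167. All cKO oocytes lay far below the controls, with a log2 change of -2.99 ± 0.25 (adjusted p = 0.00577), 7.95-fold lower. Ncapg measured 1086, 899 and 1030 CPM in controls and 215, 141, 189 and 215 in cKO, in the same order of females. The log2 change was -2.41 ± 0.31 (adjusted p = 0.0132), 5.31-fold lower.
Ncapd2 measured 18.0, 18.1 and 18.2 CPM in controls and 98.3, 70.0, 140 and 107 in cKO. It was 5.67-fold higher, a log2 change of 2.50 ± 0.35 (adjusted p = 0.0134), and no oocytes overlapped. Scarna10, which shares exon bases with it, was lower in the cKO oocytes (10.0 to 25.6 CPM) than in controls (31.2 to 44.8 CPM). The level of Gm28967, which also shares exon bases with Ncapd2, was not examined. The part of the shared bases in the Ncapd2 difference was not tested. These 3 calls held without V1166 and without V1167, and V1145, the only control female, could not be left out.
Smc2 measured 59.1, 58.7 and 36.5 CPM in controls and 30.9, 60.4, 18.4 and 18.5 in cKO, and its log2 change of -0.89 ± 0.48 did not pass (adjusted p = 0.266). Ncapg2 measured 185, 149 and 163 CPM in controls and 298, 207, 262 and 258 in cKO. All cKO oocytes were above the controls, but the log2 change of 0.62 ± 0.32 over females did not pass (adjusted p = 0.242); with oocytes as replicates it did (adjusted p = 0.0293). Ncaph (-0.08 ± 0.24), Ncapd3 (-0.44 ± 0.27) and Ncaph2 (0.54 ± 0.45) did not pass, with adjusted p of 0.849, 0.323 and 0.438.

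**Figure D3:**
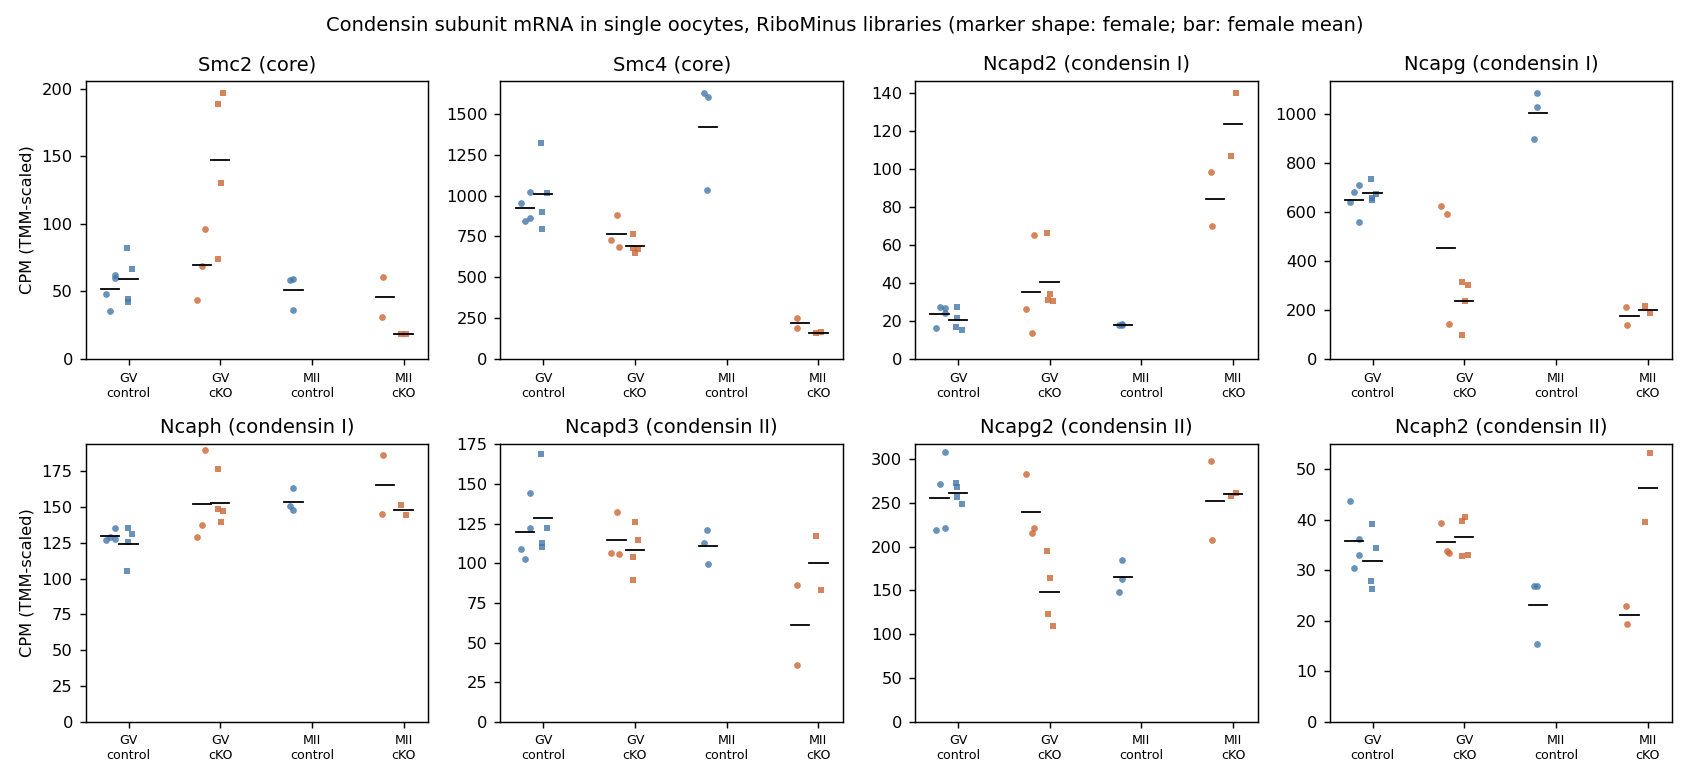
CPM (TMM-scaled, linear axis from 0) of the 8 condensin mRNAs in each RiboMinus oocyte, by stage and genotype; points are oocytes, marker shapes are females and bars are female means. In MII cKO oocytes Smc4 (158 to 249 CPM) and Ncapg (141 to 215) lie below, and Ncapd2 (70.0 to 140) above, the 3 control oocytes of 1 female.

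The MII genotype difference was compared between library types in the joint fit, and 4 of the 8 members passed, against 9.43% of all genes (5.78% higher in polyA, 3.65% lower). The log2 change was higher in polyA than in RiboMinus by 2.44 ± 0.26 for Smc4 (adjusted p = 1.23e-05), by 1.89 ± 0.32 for Ncapg (adjusted p = 0.00105) and by 0.93 ± 0.27 for Ncaph (adjusted p = 0.0348). For Ncapd2 the difference was -2.12 ± 0.62 (adjusted p = 0.0358). Smc4 in polyA libraries was thus lower in cKO MII eggs by a log2 change of -0.51, and in RiboMinus by -2.99. The calls of Smc4 and Ncapg held without each of 8 females in turn, but V1145, the only RiboMinus MII control female, could not be left out. That of Ncapd2 was lost without V841 (-2.08), V842 (-1.999), V836 (-1.98), V896 (-1.99) or V1167 (-1.89), and that of Ncaph without V897 (0.77), V836 (0.90), V853 (0.93), V1166 (0.97) or V1167 (0.89). Ncaph was also lost with DESeq2 size factors, without the filter and in a fit of only these groups, and Ncapg2 passed with oocytes as replicates (-0.65).

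The stage comparisons ask how the mRNAs change through maturation. From GV to GV3h none of the 8 members passed in control or in cKO polyA libraries, against 0.0% of all genes in each (425 genes had an unadjusted p under 0.05 in controls and 373 in cKO, and DESeq2 called 18 and 17). In controls no member was under an unadjusted p of 0.05, and in cKO 1 was, Ncaph (0.36 ± 0.17). DESeq2 called 0 members in controls and 0 in cKO. The largest interval in controls was that of Ncapd2, -0.81 to 0.93, and that of Smc4 was -0.40 to 0.29. The change did not pass as differing by genotype for any member (0.0% of all genes passed, and no member had an unadjusted p under 0.05, and DESeq2 called 0).

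From GV to MII in control polyA libraries, 4 of the 8 members passed, against 42.5% of all genes (16.8% higher, 25.7% lower): Smc4, Ncapd3 and Ncapg2 rose and Ncaph2 fell. Smc4 went from 744 to 969 CPM at GV to 1418 to 2063 at MII, a log2 change of 1.10 ± 0.17 (adjusted p = 6.35e-05) with no overlap of oocytes. Ncapg2 went from 314 to 443 to 489 to 691 CPM, also without overlap (0.65 ± 0.17, adjusted p = 0.00618). Ncapd3 changed least of the 4 (0.39 ± 0.15, adjusted p = 0.0426).
Ncaph2, the condensin II kleisin, went from 45.0 to 90.4 CPM at GV to 0.876 to 12.8 at MII. It was 8.65-fold lower (-3.11 ± 0.26, adjusted p = 1.24e-07), and no oocytes overlapped. The other kleisin, Ncaph, had a log2 change of -0.38 ± 0.16 that did not pass (adjusted p = 0.0757). Smc2 (0.64 ± 0.28, adjusted p = 0.0753), Ncapd2 (0.91 ± 0.42, adjusted p = 0.0905) and Ncapg (-0.17 ± 0.19, adjusted p = 0.514) did not pass. Smc2 did pass under 5 of the alternatives, with DESeq2 size factors (adjusted p = 0.0381), without the filter (0.0235), with DESeq2 (0.0222), in a fit of only these groups (0.0377) and with oocytes as replicates (0.00433). Ncapd2 passed with DESeq2 (adjusted p = 0.0376) and Ncaph with limma (0.0339) and voom (0.0247), and both passed with oocytes as replicates, as did Ncapg.
Ncapd3 did not pass without V856 (0.49), V889 (0.31) or V896 (0.25), Ncapg2 not without V856 (0.49), and Ncapd2 passed without V853 (1.14). When library totals replaced the TMM factors, Ncapd3 turned to -0.039 and Ncapg2 went to 0.22 (adjusted p = 0.328), neither of them called, while Ncapg (-0.59) and Ncaph (-0.81) passed. Ncapd3 was also lost under the other alternatives except DESeq2 and DESeq2 size factors.

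From GV to MII in cKO polyA libraries, 5 of the 8 members passed, against 44.7% of all genes (18.1% higher, 26.6% lower): Smc4, Ncaph, Ncapd3 and Ncapg2 rose and Ncaph2 fell. Smc4 rose 2.43-fold (1.28 ± 0.17, adjusted p = 1.69e-05), Ncapg2 2.35-fold (1.23 ± 0.17, adjusted p = 3.34e-05) and Ncapd3 1.45-fold (0.54 ± 0.15, adjusted p = 0.0072). Ncaph2 was 4.81-fold lower at MII (-2.27 ± 0.25, adjusted p = 2.85e-06). Ncaph rose 1.70-fold (0.76 ± 0.17, adjusted p = 0.0016). Smc2 (-0.60 ± 0.27, adjusted p = 0.0787), Ncapd2 (0.47 ± 0.40, adjusted p = 0.373) and Ncapg (0.21 ± 0.19, adjusted p = 0.405) did not pass, and without V888 Smc2 (-1.04) and Ncapd2 (1.63) did. With library totals the calls of Ncaph (0.24, adjusted p = 0.235) and Ncapd3 (0.013, adjusted p = 0.95) were lost, and Smc2 passed at -1.12 (adjusted p = 0.00222). Smc2 passed also without the filter (adjusted p = 0.0436) and with oocytes as replicates (adjusted p = 0.0155).
The GV to MII change was compared between genotypes, and 1 of the 8 members passed, Ncaph, against 1.94% of all genes (1.59% higher in cKO, 0.353% lower; 373 genes by edgeR, and 1138 by DESeq2). Its log2 change was higher in cKO by 1.14 ± 0.23 (adjusted p = 0.0217). That call was lost without V857 (1.09), V856 (1.09) or V889 (1.198), and in a fit of only these groups. Smc2 differed by -1.24 ± 0.38 and did not pass (adjusted p = 0.114). It passed with DESeq2 (adjusted p = 0.0203), without the filter (0.0078), with oocytes as replicates (0.00877) and without V888 (-1.67). Leaving out V888 also made Ncapg2 pass (0.91, against 0.58 ± 0.24 with V888). Genotype and stage comparisons of a library type share groups and are not independent of each other.

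**Figure D4:**
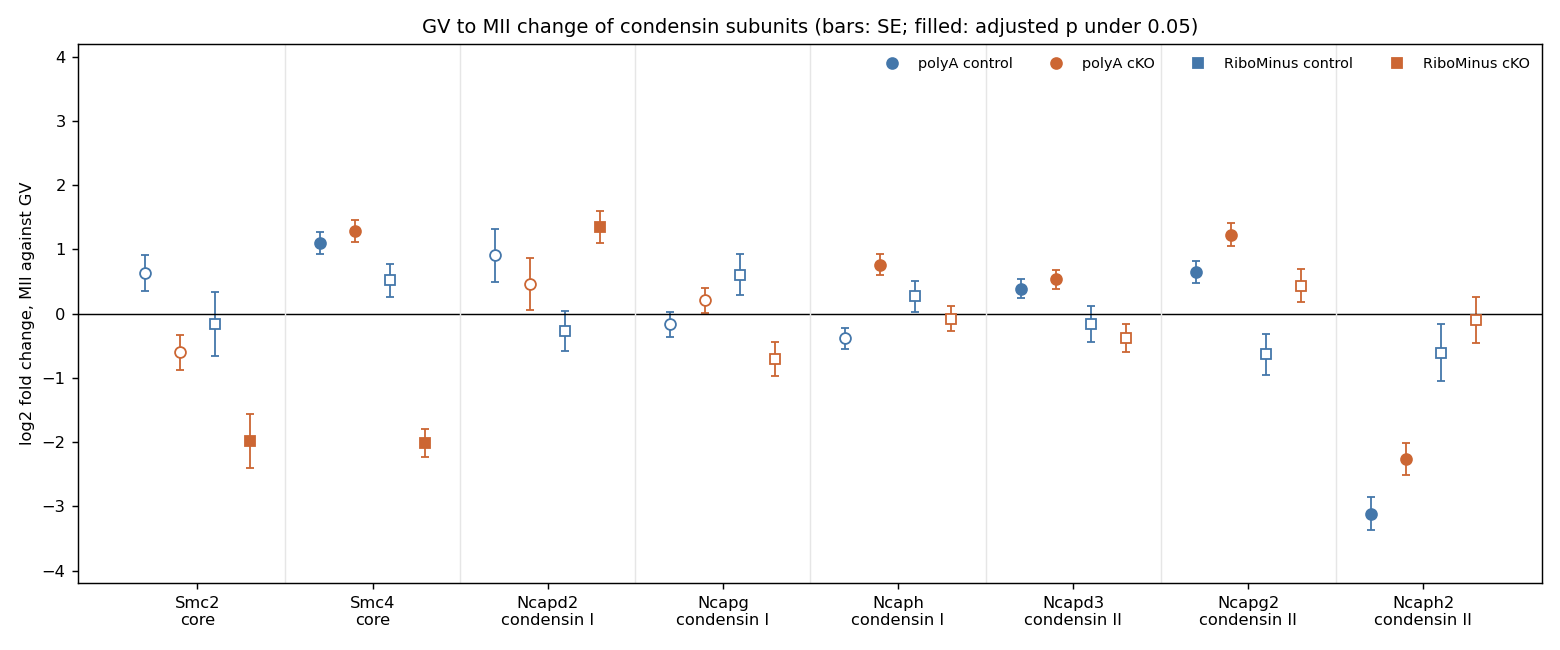
Log2 fold change of each condensin mRNA from GV to MII, for control and cKO oocytes in polyA (circles) and RiboMinus (squares) libraries; bars are SE over females and filled symbols passed an adjusted p of 0.05. Ncaph2 is at -3.11 and -2.27 in polyA and at -0.61 and -0.10 in RiboMinus; Smc4 in cKO is at 1.28 in polyA and -2.01 in RiboMinus.

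In RiboMinus controls none of the 8 members passed from GV to MII, against 0.00787% of all genes (2 genes), with no member at an unadjusted p under 0.05 and 0 called by DESeq2. Ncaph2 went from 26.3 to 43.6 CPM at GV (median 33.7) to 26.8, 26.8 and 15.5 at MII, a log2 change of -0.61 ± 0.45. Smc4 had a log2 change of 0.52 ± 0.26 (adjusted p = 0.384) and Ncapg2 one of -0.63 ± 0.32 (adjusted p = 0.391). Smc4, Ncapg and Ncapg2 passed in a fit of only these groups and with oocytes as replicates, and Ncaph2 with oocytes as replicates.
In RiboMinus cKO 3 of the 8 members passed, against 2.32% of all genes (0.61% higher, 1.71% lower): Smc2 and Smc4 fell and Ncapd2 rose. Smc4 went from 651 to 884 CPM at GV to 158 to 249 at MII, without overlap, and was 4.03-fold lower (-2.01 ± 0.22, adjusted p = 0.0147). Smc2 went from 44.0 to 197 CPM (median 96.0) to 18.4 to 60.4 (median 24.7) and was 3.96-fold lower (-1.99 ± 0.42, adjusted p = 0.0498). Ncapd2 went from 13.8 to 66.2 CPM to 70.0 to 140, without overlap, and was 2.55-fold higher (1.35 ± 0.25, adjusted p = 0.0396). Smc2 did not pass without V1131 (-1.42), V1166 (-2.60) or V1167 (-1.56), Smc4 not without V1166 (-2.19), and Ncapd2 not without V1126 (1.33), V1131 (1.37) or V1166 (1.56). In a fit of only these groups all 3 calls were lost, with library totals those of Smc2 and Ncapd2, and with DESeq2 size factors and limma that of Smc2.
The RiboMinus change did not differ by genotype past the threshold for any member (0 of 8, 0.0% of all genes). At an unadjusted p under 0.05 there were 5 members (Smc2, Smc4, Ncapd2, Ncapg and Ncapg2), against 3611 of all 25425 genes. DESeq2 called 2 members, against 1141 genes in all. For Smc4 that difference was -2.53 ± 0.33 (adjusted p = 0.125) and for Ncapd2 1.62 ± 0.41 (adjusted p = 0.183). Both passed with DESeq2, without the filter and with oocytes as replicates, and Smc4 with voom. Smc2 passed without the filter, Ncapg2 with voom, and Smc2, Ncapg and Ncapg2 with oocytes as replicates.

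The GV to MII change was then compared between library types. In controls 2 of the 8 members passed, against 22.8% of all genes (10.9% higher in polyA, 11.9% lower): Ncapg2 changed by 1.44 ± 0.34 more in polyA (adjusted p = 0.003), and Ncaph2 by -2.34 ± 0.47 (adjusted p = 0.00076). The fall of Ncaph2 in polyA libraries was therefore larger than its change in RiboMinus by 5.07-fold, and both calls held without each of 7 females in turn; V1145 could not be left out. With library totals Ncapg (-1.14) and Ncaph (-1.02) passed as well. Ncapd3 (0.72 ± 0.28, adjusted p = 0.0713) passed without V853 (0.81) and with DESeq2 (adjusted p = 0.0234). Smc4 (0.75, adjusted p = 0.0576) passed with voom (adjusted p = 0.00177) and in a fit of only these groups (adjusted p = 0.0137), and with oocytes as replicates all 8 members passed.
In cKO 7 of the 8 members passed, all but Ncapd2, against 20.7% of all genes (11.6% higher in polyA, 9.17% lower). Smc4 changed by 3.47 ± 0.26 more in polyA than in RiboMinus (adjusted p = 8.71e-08), the largest difference of the 8, and Smc2 by 1.57 ± 0.49 (adjusted p = 0.0245). The differences of the condensin I subunits Ncapg (1.10 ± 0.31) and Ncaph (1.02 ± 0.26) and of the condensin II subunit Ncapd3 (1.09 ± 0.25) passed with adjusted p of 0.0132, 0.0059 and 0.00261. Ncapg2 changed by 0.97 ± 0.29 more (adjusted p = 0.0208) and Ncaph2 by -1.99 ± 0.42 (adjusted p = 0.00166). Ncapd2 differed by -0.72 ± 0.54 (adjusted p = 0.383) and passed without V857 (-1.36). The call was lost for Smc2 without V888 (1.18), V1131 (1.01) or V1167 (1.14), for Ncapg without V888 (0.90) or V1126 (0.66), and for Ncapg2 without V857 (0.69), V1126 (0.59) or V1167 (0.93). With library totals the calls of Smc2 (0.90), Ncapg (0.38), Ncaph (0.30), Ncapd3 (0.37) and Ncapg2 (0.25) were lost, and a fit of only these groups lost the same 5. Smc2 was also lost with limma, Ncapg with voom, Ncaph without the filter and Ncapg2 with DESeq2 size factors.

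A ratio of 2 members within an oocyte needs no scaling between libraries. The log2 ratio of Smc2 to Smc4 counts per kb ran from -4.98 to -3.96 in polyA GV controls (median -4.38) and from -3.97 to -2.20 in cKO (median -2.66), so the groups met only at their edge. At GV3h it ran from -4.98 to -4.10 in controls (median -4.55) and from -3.72 to -1.67 in cKO (median -2.45), with no overlap. At polyA MII the ranges overlapped, at -5.24 to -4.49 in controls (median -4.87) and -5.29 to -3.75 in cKO (median -4.32). In RiboMinus the ratio ran from -4.66 to -3.87 in GV controls and -4.12 to -1.85 in GV cKO, and was -4.90 to -4.84 in MII controls and -3.23 to -2.11 in MII cKO. These ratios are descriptions over oocytes and were not tested.
The summed condensin I mRNAs (Ncapd2, Ncapg and Ncaph) per kb stood above the summed condensin II mRNAs in every polyA GV control, at a log2 ratio of 0.24 to 0.41, and in GV cKO the ratio was -0.48 to 0.51. At polyA MII the ratio was -0.38 to 0.13 in controls (median -0.07) and -0.44 to 0.07 in cKO (median -0.13). At RiboMinus MII it was 2.21 to 2.37 in controls and 0.72 to 1.31 in cKO, with no overlap. The log2 ratio of the kleisins, Ncaph to Ncaph2, had medians of 0.39 at polyA GV and 3.04 at polyA MII in controls, against 1.89 and 2.57 in RiboMinus controls.

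**Figure D5:**
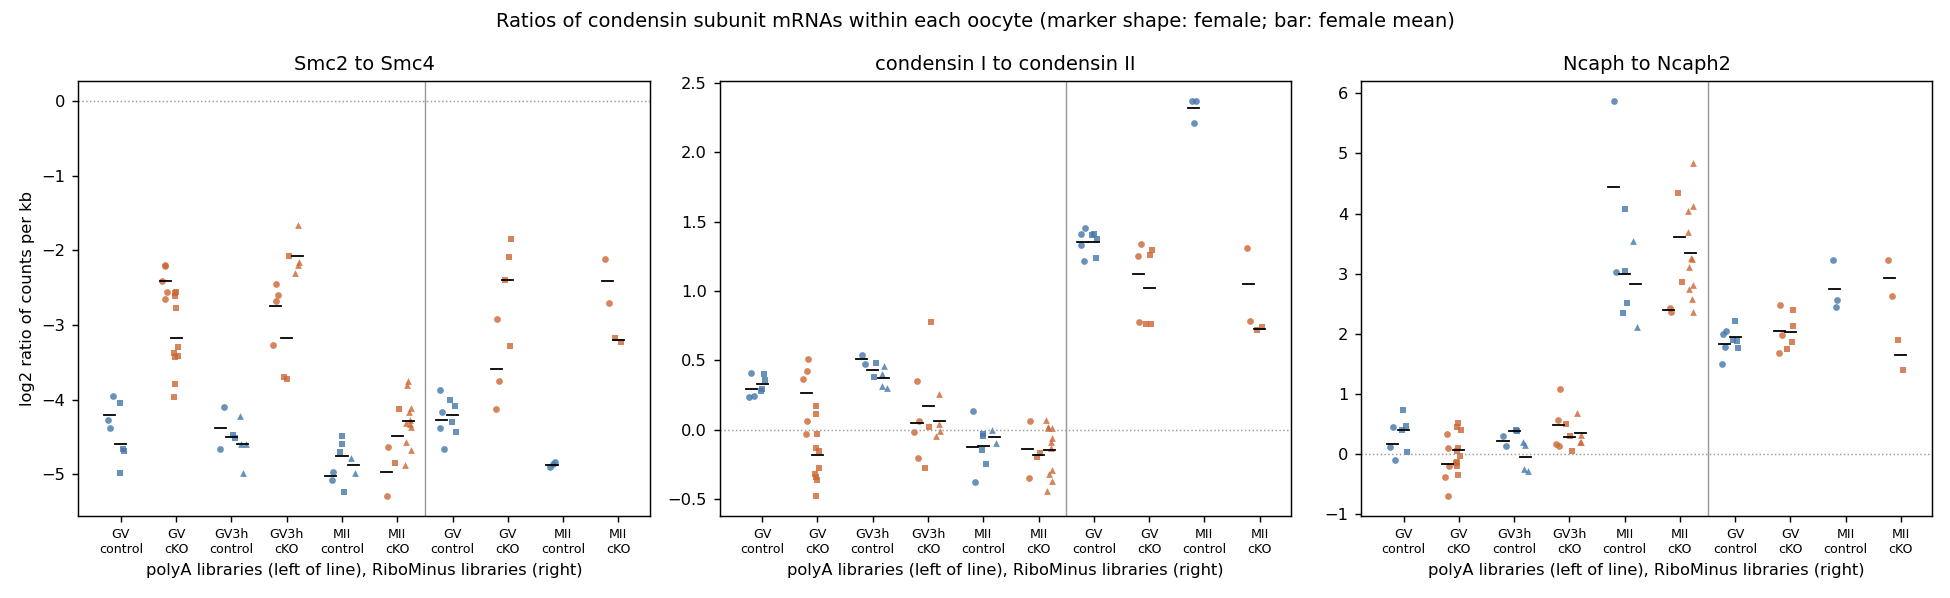
Log2 ratios of counts per kb within each oocyte for Smc2 to Smc4, condensin I to condensin II and Ncaph to Ncaph2, in the 10 groups; points are oocytes, marker shapes are females, bars are female means and the vertical line separates polyA from RiboMinus. The Smc2 to Smc4 ratio of cKO oocytes lies above that of controls at polyA GV3h and at RiboMinus MII, with no overlap.

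Of 24 genes of condensin regulation and mitotic chromosome structure, all tested, the GV polyA comparison called 4 lower and 0 higher in cKO, the GV3h comparison 6 lower and 0 higher, and the MII comparison 4 lower and 2 higher. In RiboMinus 0 were called at GV (3 at an unadjusted p under 0.05, 1 by DESeq2) and 2 lower at MII. Over all 25425 genes at RiboMinus GV, 3727 had an unadjusted p under 0.05 and DESeq2 called 1567. The shares called among all genes in each direction were 3.91% lower and 3.47% higher in the GV polyA comparison, then 12.7% and 12.5% (GV3h), 6.99% and 11.9% (MII), and 3.69% and 3.61% (RiboMinus MII). Median log2 changes of the list were -0.20, -0.18, 0.04, -0.09 and -0.32 in the order polyA GV, GV3h, MII, RiboMinus GV, MII, against 0.08, 0.07, 0.12, 0.04 and 0.25 over all genes tested. Those of the 8 members were -0.38, -0.34, -0.06, -0.09 and -0.26.
Mki67, which coats mitotic chromosomes, was called lower in 4 of the 5 comparisons, at -0.89 ± 0.22, -1.18 ± 0.18 and -1.34 ± 0.18 in polyA GV, GV3h and MII and -1.96 ± 0.26 in RiboMinus MII. Ttk, the kinase MPS1 of the spindle checkpoint, was called lower in 3, the polyA comparisons (-0.96 ± 0.16, -1.33 ± 0.13 and -0.97 ± 0.13). Mcph1, an inhibitor of condensin II, was lower at GV3h (-0.46 ± 0.11, adjusted p = 0.00605), and Plk1, a kinase that acts on condensin, was lower at GV3h (-0.64 ± 0.14, adjusted p = 0.0033) and at polyA MII (-0.61 ± 0.14, adjusted p = 0.0066). Cdk1, Top2a and Top2b were called in 0 of the 5 comparisons. Of these, the smallest adjusted p was 0.0565 for Cdk1 (RiboMinus MII, -1.63 ± 0.44), 0.0918 for Top2a (polyA GV, -0.62 ± 0.22) and 0.153 for Top2b (RiboMinus MII, -1.11 ± 0.45).
The other SMC complexes are given by counts. Of 17 cohesin genes 16 were tested, and at polyA GV3h 4 were called higher and 5 lower, against 1 higher and 1 lower at polyA GV and at polyA MII, 0 at RiboMinus GV (3 at an unadjusted p under 0.05, 2 by DESeq2) and 1 each way at RiboMinus MII. Of 9 SMC5/6 genes 8 were tested, and edgeR called 0 at polyA GV (1 at an unadjusted p under 0.05), 1 at GV3h, 2 at polyA MII, 0 at RiboMinus GV (2 at an unadjusted p, 0 by DESeq2) and 3 at RiboMinus MII.

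The genes whose log2 CPM over the 16 polyA females was most like the mean of the 8 members, among 9278 genes with an average log2 CPM of at least 3, were Prdm2 (Pearson r = 0.91), March6 (0.90), Wdr46 (0.88), Thsd4 (0.87) and Vps13b (0.86). For the condensin I subunits they were Stau1 (0.91), Prep (0.89) and Cwc27 (0.89), and for the condensin II subunits Supt6 (0.96), Foxj3 (0.96) and Abcb8 (0.94). The members did not share 1 profile, so these means average opposing ones: over the same females the correlation was -0.86 for Smc4 and Ncaph2, -0.79 for Ncapg2 and Ncaph2, -0.71 for Ncapd3 and Ncaph2 and -0.72 for Smc2 and Ncapg, against 0.89 for Smc4 and Ncapd3. These values are descriptions over females of 3 stages and 2 genotypes, which share scaling and stage.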

How the data were processed

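RNA of single oocytes was measured in 64 polyA and 22 RiboMinus libraries. Each deposited gene file gives 1 library's raw counts by Ensembl identifier, not normalized. 55394 of 55573 gene identifiers had a symbol, and 5 summary lines per file were left out; in polyA files the reads outside genes were 5.86% to 14.2% of the total of all lines, and in RiboMinus files 8.34% to 12.4%. Per the labels' protocols, polyA RNA was caught on oligo(dT) beads, reverse transcribed, amplified and tagged with Nextera, and RiboMinus libraries were made with Ovation Solo from random hexamers. The submitters' processing notes name cutadapt 2.5, STAR 2.7.2a, SAMtools 1.9, HTSeq 0.9.1 and mm10; the annotation release and strand setting are not given in the sources used here. The 22 rRNA files were not used.

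Counts were summed per female, because each sample is 1 oocyte and the labels name the female. They were filtered (filterByExpr, minimum count 10), scaled by TMM and tested with edgeR 4.0.16 quasi-likelihood tests in R 4.3.3. All groups of a library type entered 1 fit, and both library types entered 1 fit for the 4 comparisons between them. Tests were two-sided, p-values were adjusted by Benjamini-Hochberg over all genes, and a gene was called at an adjusted p under 0.05. There were 18 comparisons and 144 member values. The 1 female of the RiboMinus MII control was assumed to vary like the others. Errors are SE of log2 changes over females, and 95% intervals use the t distribution of the fit. Each oocyte was scaled for plots of CPM by its own TMM factor. CPM per kb uses the exon length of GENCODE M21. Tables used pandas 2.3.3 and plots matplotlib 3.10.9 in Python 3.11.15.

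The alternatives were DESeq2 1.42.0, DESeq2 size factors, library totals, no filter, only the groups compared, oocytes as replicates, limma 3.58.1 on female means, voom with females as random blocks, and leaving out each female except V1145, the only one of the RiboMinus MII controls. Tested on simulated counts, the fit recovered 55% of 2-fold and 100% of 4-fold changes at polyA MII (18334 genes), and 9% and 69% at RiboMinus MII (23790 genes). All members were named in each comparison. Of the 24 partner genes, those called in 3 or more genotype comparisons were named, with Mcph1, Top2a, Top2b, Cdk1 and Plk1. The members and lists were chosen with earlier results of these data known.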

Additional observations from a re-analysis of the deposited data

Results flagged for a closer look

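In RiboMinus GV controls, 1 oocyte of V1133 stood apart for 2 members: it had the highest Smc4 level, 1325 CPM against 1024 in the next of 8 oocytes, and the lowest Ncaph level, 105 CPM against 125 in the next. These were 2 of 48 sets of oocytes tested for a value far from the others, and chance alone gives about 1 in 20.

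Ncaph, the condensin I kleisin, changed differently from GV to MII by genotype in polyA libraries, by 1.14 on the log2 scale in cKO relative to controls. The MII genotype difference differed between polyA and RiboMinus libraries, made from different females, for Smc4 (2.44, polyA minus RiboMinus), Ncapg (1.89), Ncaph (0.93) and Ncapd2 (-2.12). The RiboMinus control eggs of these came from 1 female.

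The GV to MII change differed between the library types, again of different females, in controls for Ncapg2 (1.44, polyA minus RiboMinus) and Ncaph2 (-2.34). In cKO it did for Smc4 (3.47), Smc2 (1.57), Ncapg (1.10), Ncapd3 (1.09), Ncaph (1.02), Ncapg2 (0.97) and Ncaph2 (-1.99). Each of these differences passed its own test of the difference, with adjusted p-values given above.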

How the results depend on the processing

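Of the 42 member values called, DESeq2 lost 0, DESeq2 size factors 3, limma and voom 5 each, no filter 6, library totals 17, only the groups compared 18 and oocytes as replicates 2, while 9, 1, 1, 5, 9, 5, 7 and 33 others of 102 gained a call. The called Ncapd3 value from GV to MII in polyA controls is not among those 17. It too lost its call with library totals, and turned to -0.039. Members called, in the order polyA GV, GV3h and MII, were 1, 3 and 2 with library totals. With only the groups compared polyA GV had 0, polyA MII 2 and RiboMinus cKO GV to MII 0, and voom gave 2 at polyA MII. RiboMinus GV had 2 without the filter or with DESeq2, 1 with voom and 6 with oocytes as replicates. RiboMinus cKO GV to MII had 1 with library totals. RiboMinus control GV to MII had 3 with only the groups compared and 4 with oocytes as replicates, and polyA control GV to MII had 7 with oocytes as replicates. The polyA interaction from GV to MII had 2 without the filter, with DESeq2 or with oocytes as replicates and 0 with only the groups compared. The RiboMinus interaction had 3, 2, 2 and 5 without the filter, with DESeq2, voom and oocytes as replicates. The comparison of library types for the control change had 4 with library totals and 8 with oocytes as replicates, and that for the cKO change 2 with library totals or only the groups compared. Leaving out 1 female (never V1145) gave 0 to 3 members at polyA GV, 5 at GV3h, 2 to 4 at polyA MII, 0 to 1 at RiboMinus GV and 3 at RiboMinus MII, 2 to 5 and 5 to 7 for polyA control and cKO GV to MII, 0 to 3 for their interaction, 0 to 2 for RiboMinus cKO GV to MII, and 2 to 3, 2 to 3 and 5 to 7 for the library comparisons at MII, of the control change and of the cKO change. The cause was not tested.

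Over all genes, library totals moved the median log2 change from 0.08 to 0.27 (polyA GV), 0.07 to 0.29 (GV3h), 0.04 to 0.17 (RiboMinus GV), 0.25 to 0.45 (RiboMinus MII), -0.26 to -0.69 and -0.33 to -0.86 (polyA control and cKO GV to MII), 0.01 to 0.13 (library comparison at GV), and 0.00 to -0.32 and -0.24 to -0.93 (of the control and cKO changes). The share of calls that were higher moved from 47.0% to 74.2% (polyA GV), 49.5% to 70.5% (GV3h), 49.5% to 65.9% (RiboMinus MII), 39.5% to 21.4% and 40.5% to 20.0% (polyA control and cKO GV to MII), 81.8% to 68.9% (polyA interaction), and 47.7% to 28.2% and 55.8% to 20.7% (library comparisons of the control and cKO changes). With DESeq2 size factors the library comparison at MII moved its median from -0.05 to -0.21 and its share from 61.3% to 48.5%, and that of the cKO change its median from -0.24 to -0.43. DESeq2 called 2729 genes at polyA GV (edgeR 1420), 1138 for the polyA interaction from GV to MII (edgeR 373), 1567 at RiboMinus GV (edgeR 8), 5313 at RiboMinus MII (edgeR 1857), 1619 and 2985 from GV to MII in RiboMinus control and cKO (edgeR 2 and 591), 1141 for their interaction (edgeR 0, with 3611 at an unadjusted p under 0.05), and 9 and 4040 for the library comparisons at GV and MII (edgeR 1 and 2337). No paired analysis was possible because each female gave oocytes of 1 genotype and 1 stage, so no groups compared share a female. At polyA MII Ncaph2 rested on 5 to 158 reads per oocyte, and the part of depth in the precision of the values was not tested.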
